A study of Mus musculus with 9 samples.

Results

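The subcortical maternal complex is an assembly of maternal proteins that lies beneath the cortex of the mouse oocyte and early embryo. Transcript levels of its 8 members (Nlrp5, Ooep, Tle6, Khdc3, Padi6, Nlrp2, Nlrp4f and Zbed3) were examined, chosen by gene name from the 28052 genes of the deposited matrices. All 8 had UMIs in every sample and all 8 passed the filter on low counts. The study compared the transcriptomes of growing mouse oocytes that carried an XX, XO or XY sex chromosome complement, with 3 samples of each genotype. Each sample was a pool of 30 oocytes, 10 of 50–55 µm and 20 of 55–60 µm in diameter, and the labels give C57BL/6 as the strain and 18 days post partum as the age of all samples. XY females, whose ovaries formed because the Y chromosome of the TIR variant fails to direct testis development on the B6 background, and their XX littermates were offspring of B6.Y TIR males and B6 females. XO females came from another cross, of B6 females with males carrying Paf, a mutation that was moved from C3H/HeSnJ onto B6 by backcrossing. XX littermates of the XO females were not analysed here, so that the XO complement and this cross cannot be told apart. The XO sample whose column carries no number is called XO1.

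In the growing oocyte, NLRP5, TLE6 and OOEP form the core of the complex, and KHDC3, PADI6 and other NLRP proteins join it or the cytoplasmic lattices, fibrous structures that store proteins for the embryo. Transcription stops when the oocyte is fully grown, so that the first cleavages of the embryo rely on what was stored before. Embryos of mothers that lack Nlrp5, Tle6, Ooep or Padi6 arrest in early cleavage, and for this reason the genes are called maternal effect genes.

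The libraries were made by Smart-seq3, and the authors counted the unique molecular identifiers (UMIs) at the 5′ end of transcripts, so that a molecule counts once whatever the length of the transcript. Levels of different genes are therefore compared here without division by length. Levels are given as normalized CPM, the UMI count of a gene divided by the gene total of the sample and by a trimmed mean factor (TMM) of the ERCC spike-in RNAs, as the authors deposited them. The samples held between 2130145 and 3157338 UMIs on genes, with another 0.204 to 0.862% of UMIs on spike-ins. The spike-in mix was in the same lysis buffer for all samples, yet its make-up differed between the libraries. Spike-in ERCC-00002 made up 1.43, 1.34 and 8.31% of spike-in UMIs in XX1, XX2 and XX3, 0.533, 19.7 and 25.5% in XO1, XO2 and XO3, and 0.588, 3.13 and 9.66% in XY1, XY2 and XY3. The 95% Wilson intervals of these shares, which cover counting error only, reached at most 0.893 percentage points to either side. The descriptions of the samples carry a library number, which is 3, 6 and 9 for XX1 to XX3, 1, 12 and 13 for XO1 to XO3, and 4, 7 and 10 for XY1 to XY3. The share of ERCC-00002 followed this number (Pearson r = 0.96 and Spearman rho = 0.95 over 9 samples, of shares on the log2 scale). XO2 and XO3 stood apart from XO1 at the other end of both measures, and results that rest on these libraries are given with and without the number or the spike-in composition in the fit.

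The cells were checked against markers. Summed over 9 oocyte markers, levels lay between 16019 and 25842 normalized CPM in all samples. Of 15 granulosa cell markers, 11 were in the files and 3 passed the filter on low counts (Nr5a2, Cyp19a1 and Kitl), and their summed levels were between 50.4 and 70.7 normalized CPM in XX, 57.0 and 70.6 in XO and 60.2 and 97.8 in XY samples. Of 11 markers of theca, stroma, blood and vessel, 6 were in the files and only Pecam1 passed the filter, with sums of 20.0 to 50.3 normalized CPM in XX, 17.6 to 132.7 in XO and 29.7 to 61.0 in XY samples. Kitl was called higher in XX than in XO (1.09 ± 0.31 on the log2 scale, edgeR adjusted p = 0.203), and no other granulosa, theca, stroma, blood or vessel marker was called. None of the markers in the files was at 0 in all samples. The part of these cells in the results was not tested.

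All 8 members are protein-coding and autosomal. By Gencode vM21 (GRCm38), Nlrp5 lies at chr7:23385889-23441922 and Nlrp2 at chr7:5298547-5351035, Ooep at chr9:78376109-78378725 and Khdc3 at chr9:73101836-73104438, Tle6 at chr10:81590904-81601073, Padi6 at chr4:140727355-140742643, and Nlrp4f and Zbed3 at chr13:65177111-65205977 and chr13:95323612-95337841. Promoter sequences of the 5 members whose levels ran most closely with or against the library number are shown at annotated start sites. Whether the 5′ UMIs of these oocytes arose from these starts was not tested. The choice of these 5 was made after their values were seen. The windows are RefSeq sequences of GRCm38.p6, 250 bases before to 50 after the start, in the direction of the gene. Capitals mark matches, on either strand, to CANNTG (the E-box, bound by helix-loop-helix factors such as FIGLA), TAATTG (a core sequence of homeodomain factors such as NOBOX) and TATAAA (the TATA box).
Padi6, chr4:140742594-140742893, minus strand: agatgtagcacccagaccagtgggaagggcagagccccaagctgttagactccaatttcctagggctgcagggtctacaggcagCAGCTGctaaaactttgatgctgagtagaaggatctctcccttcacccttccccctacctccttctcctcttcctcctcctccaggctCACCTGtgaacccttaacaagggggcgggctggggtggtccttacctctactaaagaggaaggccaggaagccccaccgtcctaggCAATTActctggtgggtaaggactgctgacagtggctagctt
Tle6, chr10:81600851-81601150, minus strand: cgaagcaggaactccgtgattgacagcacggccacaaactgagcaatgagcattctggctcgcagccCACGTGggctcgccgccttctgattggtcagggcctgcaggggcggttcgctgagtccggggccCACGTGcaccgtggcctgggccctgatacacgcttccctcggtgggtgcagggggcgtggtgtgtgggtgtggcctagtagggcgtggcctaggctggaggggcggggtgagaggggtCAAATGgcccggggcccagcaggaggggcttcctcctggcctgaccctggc
Ooep, chr9:78378539-78378838, minus strand: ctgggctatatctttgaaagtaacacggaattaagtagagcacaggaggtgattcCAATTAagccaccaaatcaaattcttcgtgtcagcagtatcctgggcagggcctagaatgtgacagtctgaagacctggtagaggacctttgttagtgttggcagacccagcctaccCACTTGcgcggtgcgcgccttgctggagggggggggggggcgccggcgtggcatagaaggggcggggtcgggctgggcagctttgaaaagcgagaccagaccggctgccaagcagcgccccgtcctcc
Nlrp2, chr7:5350986-5351285, minus strand: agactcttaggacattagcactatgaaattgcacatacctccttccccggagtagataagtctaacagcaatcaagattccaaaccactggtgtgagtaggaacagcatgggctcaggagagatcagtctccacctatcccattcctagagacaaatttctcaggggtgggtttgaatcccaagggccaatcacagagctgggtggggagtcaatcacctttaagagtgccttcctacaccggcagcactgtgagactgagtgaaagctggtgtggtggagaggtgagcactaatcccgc
Nlrp4f, chr13:65205667-65205966, minus strand: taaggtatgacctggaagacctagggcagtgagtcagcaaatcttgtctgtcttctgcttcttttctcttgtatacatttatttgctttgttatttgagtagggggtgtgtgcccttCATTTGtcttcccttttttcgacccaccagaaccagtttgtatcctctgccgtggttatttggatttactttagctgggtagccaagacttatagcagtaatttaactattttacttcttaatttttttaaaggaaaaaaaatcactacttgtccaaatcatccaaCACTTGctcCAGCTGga
CANNTG occurred 2 times in the Padi6 window, 3 times in the Tle6 window shown, 1 time in that of Ooep, 3 times in that of Nlrp4f and not in that of Nlrp2, and 72.3% of all 32817 RefSeq promoter windows of this length held it. Tle6 has another window, at chr10:81597318-81597617, which is not shown and held CANNTG 4 times. TAATTG occurred 1 time each in the windows of Padi6 and Ooep and in none of the other windows of the members, whereas 8.0% of all windows held it. TATAAA was absent from the 5 windows shown, and 13.6% of all windows held it. These matches describe the letters only.

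Transcripts of the complex were abundant in all genotypes. By mean level over the 9 samples, Nlrp4f ranked 34, Padi6 42, Nlrp5 47, Nlrp2 92, Ooep 102 and Zbed3 107 among all genes, while Tle6 ranked 1528 and Khdc3 3159. In XX oocytes, the order from the highest level was Nlrp5, Nlrp4f, Nlrp2, Zbed3, Padi6, Ooep, Tle6 and Khdc3. The samples of neighbouring members overlapped in XX oocytes except between Nlrp4f and Nlrp2, between Ooep and Tle6 and between Tle6 and Khdc3. XY oocytes had the same order except that Nlrp4f stood before Nlrp5, and neighbours overlapped except around Tle6. In XO oocytes, Padi6 had the highest mean and was followed by Nlrp4f, Nlrp5, Ooep, Zbed3, Nlrp2, Tle6 and Khdc3, and only Nlrp2 and Tle6 did not overlap.

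**Figure D1:**
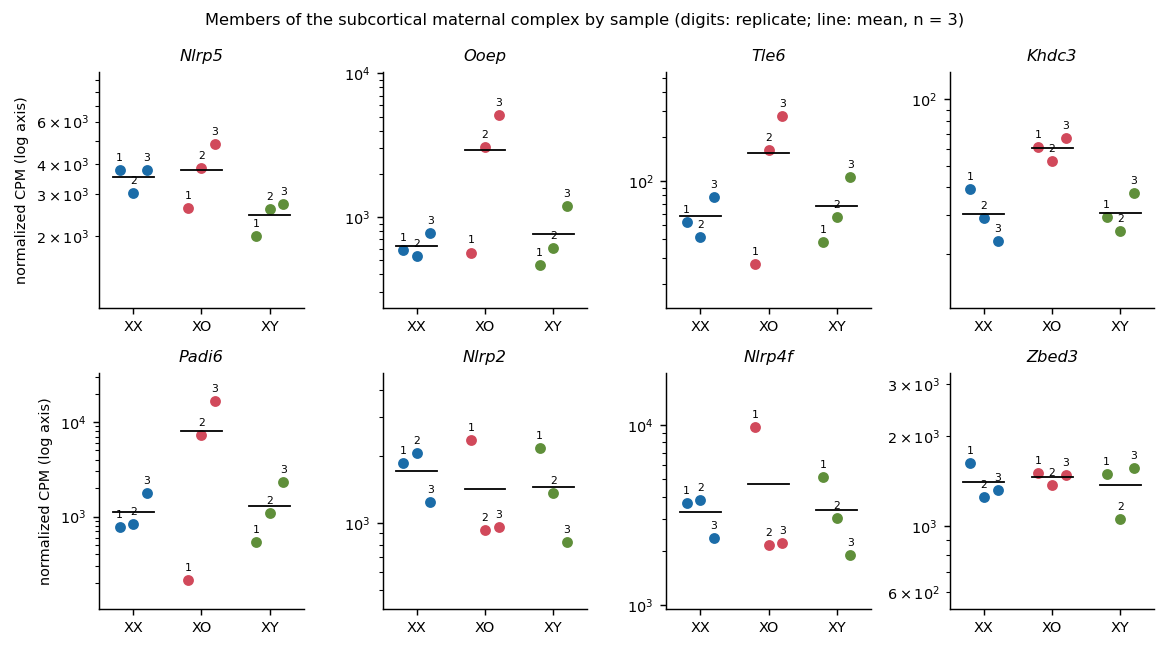
Normalized CPM (log axis) of the 8 members in each of the 9 samples, grouped by genotype; digits are replicate numbers and lines are means of 3 samples. XO1 lies below all other samples for Padi6 and Tle6 and above them for Nlrp4f, while the 3 XO samples of Khdc3 lie above all XX and XY samples.

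The core of the complex consists of NLRP5, a scaffold protein of the NLR family, OOEP, which has a KH-like domain, and TLE6, a protein of the Groucho family. Nlrp5 transcripts were at 3751, 3012 and 3785 normalized CPM in XX1, XX2 and XX3, at 2605, 3859 and 4843 in XO1, XO2 and XO3, and at 2001, 2588 and 2719 in XY1, XY2 and XY3. All XX samples thus lay above all XY samples, while XO samples overlapped with both. Ooep transcripts were at 588, 535 and 774 normalized CPM in XX, at 566, 3073 and 5114 in XO, and at 467, 605 and 1197 in XY samples in the same order. XO2 and XO3 were above all other samples, whereas XO1 lay among the XX and XY samples. Tle6 was less abundant, at 52.7, 41.7 and 78.3 normalized CPM in XX, at 27.4, 161 and 275 in XO, and at 38.6, 57.0 and 106.6 in XY samples. Here XO1 was the lowest and XO3 the highest of all samples.

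KHDC3, also known as Filia, is a KH domain protein that binds the core and is known for its part in genome stability. Its transcripts had the lowest level of the members, at 39.2, 29.1 and 22.8 normalized CPM in XX1, XX2 and XX3, at 61.1, 52.7 and 66.6 in XO1, XO2 and XO3, and at 29.3, 25.4 and 37.7 in XY1, XY2 and XY3. All XO samples lay above all XX and XY samples, which overlapped with each other. These levels rest on 63 to 125 UMIs per sample. The count of Khdc3 is uncertain, since 38.5% of its exon bases also belong to exons of Gm20509, a gene on the same strand at chr9:73102470-73117920, and how UMIs of shared exons were assigned is not given in the sources used here. Gm20509 had 445, 386 and 592 UMIs in XX, 220, 563 and 544 in XO, and 199, 512 and 764 in XY samples, more than Khdc3 in every library. When UMIs of both genes were added up, levels were 198, 164 and 203 normalized CPM in XX, 175, 344 and 374 in XO, and 122, 192 and 268 in XY samples, and the genotypes overlapped.

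PADI6 belongs to the peptidylarginine deiminases and is needed for the cytoplasmic lattices. Padi6 varied more than any other member, with 771, 838 and 1764 normalized CPM in XX1, XX2 and XX3, 212, 7273 and 16520 in XO1, XO2 and XO3, and 535, 1081 and 2312 in XY1, XY2 and XY3. XO1 was the lowest and XO3 the highest of all samples, 77.8-fold apart, and the raw counts behind them were 410 and 29264 UMIs. Within a genotype, the spread of Padi6 in the edgeR fit was a biological coefficient of variation of 0.867, higher than that of 98.1% of the tested genes. The same measure was 0.597 for Tle6, 0.589 for Ooep and 0.562 for Nlrp4f, and as low as 0.295 for Khdc3.

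NLRP2 and NLRP4F are further NLR proteins that associate with the core. Nlrp2 transcripts were at 1874, 2059 and 1244 normalized CPM in XX1, XX2 and XX3, at 2377, 934 and 960 in XO1, XO2 and XO3, and at 2184, 1367 and 822 in XY1, XY2 and XY3. Nlrp4f transcripts were at 3689, 3847 and 2340 normalized CPM in XX, at 9719, 2140 and 2215 in XO, and at 5113, 3024 and 1906 in XY samples in the same order. For both genes XO1 was the highest of all samples and XO2 and XO3 were among the lowest, the reverse of Padi6, Tle6 and Ooep. Of the 31-base stretches of Nlrp4f transcripts, 10.3% also occur in its paralog Nlrp4g, and 10.4% of those of Nlrp5 occur in the pseudogene Nlrp5-ps, so that a minor part of these UMIs may be exchanged between copies. ZBED3 is a zinc finger protein of the BED type. Zbed3 was the steadiest member, at 1633, 1252 and 1326 normalized CPM in XX, at 1512, 1375 and 1489 in XO, and at 1492, 1056 and 1568 in XY samples, with a 1.55-fold range over all samples.

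Genotypes were compared with edgeR's quasi-likelihood F test on UMI counts, in 1 fit of all 9 samples with the spike-in factors, and a gene was called at an unadjusted two-sided p below 0.05, the threshold used in the study. XX oocytes were first compared with XO oocytes, to ask what the loss of 1 X chromosome does to transcript levels. Of the 8 members, 3 were lower in XX than in XO oocytes (Padi6, Ooep and Khdc3) and none was higher, while of all 10993 tested genes 16.7% were called lower and 1.4% higher in XX oocytes. The median log2 fold change was -0.75 over the members and -0.46 over all tested genes, so that most genes lay lower in XX on this scale. This depended on the scaling. With the spike-in totals as library sizes the median over all genes was 0.42, and 290 genes were called higher and 53 lower in XX. Of all called genes 7.75% were higher in XX with the spike-in factors and 49.5% with TMM factors computed on genes. The direction in the paper was opposite to that with the spike-in factors here. From a fit with batch covariates, it reported many autosomal transcripts as lower in XO than in XX and XY oocytes. The cause of this difference was not tested. Padi6 differed by -2.83 ± 1.18 on the log2 scale (XX minus XO, SE, adjusted p = 0.257), Ooep by -2.21 ± 0.72 (adjusted p = 0.203) and Khdc3 by -0.99 ± 0.29 (adjusted p = 0.203). Relative to the median of all genes these differences were -2.37, -1.75 and -0.53. Tle6, which followed Padi6 across libraries, was at -1.42 ± 0.70 (adjusted p = 0.303) and was not called. With TMM factors on genes, Padi6 was at -2.24, Ooep at -1.66 and Khdc3 at -0.56 and only Ooep was called, and with the spike-in totals as library sizes none of the 3 was called. In the log2 values from which the authors had regressed batch effects, Padi6 and Tle6 lay 0.74 and 0.52 higher in XX and Ooep and Khdc3 differed by -0.32 and -0.45 (XX minus XO), without a test. Within a pool of 30 oocytes, fewer oocytes with a transcript and less of it in each cannot be told apart. The remaining members were between -0.51 (Nlrp4f, adjusted p = 0.688) and 0.28 (Nlrp2, adjusted p = 0.785) and were not called. The samples of the genotypes did not overlap for 1 of the 8 members, Khdc3, and 13.6% of all tested genes lay lower in XX without overlap. With TMM factors on genes, Khdc3 lay lower in XX without overlap, as did 4.34% of all tested genes, and Nlrp5 and Zbed3 lay higher, as did 10.1%. After Benjamini-Hochberg adjustment none of the 8 members passed in the edgeR fit without a covariate, where Ooep and Khdc3 had the smallest adjusted p of 0.203, and 0.0% of all genes passed. DESeq2, which called 178 genes after adjustment, also left all 8 members out.

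XY oocytes were then compared with XO oocytes, which differ by the presence of the Y chromosome and by the cross. The same 3 members were called, and all were lower in XY oocytes, against 8.24% of all tested genes called lower and 1.69% called higher. Since both comparisons use the same XO samples, this is no separate evidence. Ooep differed by -1.95 ± 0.71 on the log2 scale (XY minus XO, SE, adjusted p = 0.485), Padi6 by -2.61 ± 1.16 (adjusted p = 0.501) and Khdc3 by -0.96 ± 0.29 (adjusted p = 0.485), where the median was -0.30 over all genes and -0.80 over the members. Higher genes made up 17.0% of the called genes with the spike-in factors and 59.5% with TMM factors on genes. With the replicate number as a block, Padi6 was at -2.10 ± 0.93 (adjusted p = 0.303) and just missed the call. Deviations of same-numbered XO and XY samples from their genotype means correlated at 0.82, 0.27 and 0.77 for replicates 1, 2 and 3. Nlrp5 was at -0.63 ± 0.40 (adjusted p = 0.582) and Tle6 at -1.20 ± 0.70 (adjusted p = 0.555), and neither was called. Only the Khdc3 samples did not overlap between these genotypes, and 6.34% of all tested genes lay lower in XY without overlap. None of the 8 members passed the adjustment in the edgeR fit without a covariate (smallest adjusted p = 0.485) or in DESeq2, as against 0.0364% of all genes in that edgeR fit. Fits with covariates are given below.

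The comparison of XX with XY oocytes, which came from the same litters, called none of the 8 members in edgeR at an unadjusted p below 0.05, while 1.41% of all tested genes were called higher and 4.39% lower in XX oocytes. DESeq2 called 1 member, Nlrp5 (0.69 ± 0.25, DESeq2 adjusted p = 0.331), and 576 of all 10989 genes it tested. Of the called genes 24.3% were higher in XX with the spike-in factors and 48.3% with TMM factors on genes. The median log2 fold change was -0.02 over the members and -0.19 over all genes. With the spike-in totals as library sizes the median over all genes was 0.49. Nlrp5 had the largest difference, 0.53 ± 0.40 on the log2 scale (XX minus XY, SE, adjusted p = 1.0), and was the only member whose samples did not overlap on the spike-in scale, where 4.15% of all tested genes lay higher in XX without overlap. With TMM factors on genes, Zbed3 also lay higher in XX without overlap, beside 8.0% of all tested genes. The other 7 members were between -0.26 (Ooep) and 0.24 (Nlrp2). No member passed the adjustment in these fits of either tool, and 0.0819% of all genes did so in edgeR. With 2 surrogate variables in the edgeR fit, Nlrp5 was called at 0.60 ± 0.15 (adjusted p = 0.0169) and Nlrp2 at 0.43 ± 0.17 (adjusted p = 0.155), both higher in XX. That fit called 2193 of 10993 tested genes between XX and XY, and 703 passed the adjustment. When all 3 genotypes were tested together, Khdc3 (adjusted p = 0.29), Ooep (adjusted p = 0.303) and Padi6 (adjusted p = 0.356) were called, where 13.6% of all tested genes were called and 0.091% passed the adjustment in edgeR.

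**Figure D2:**
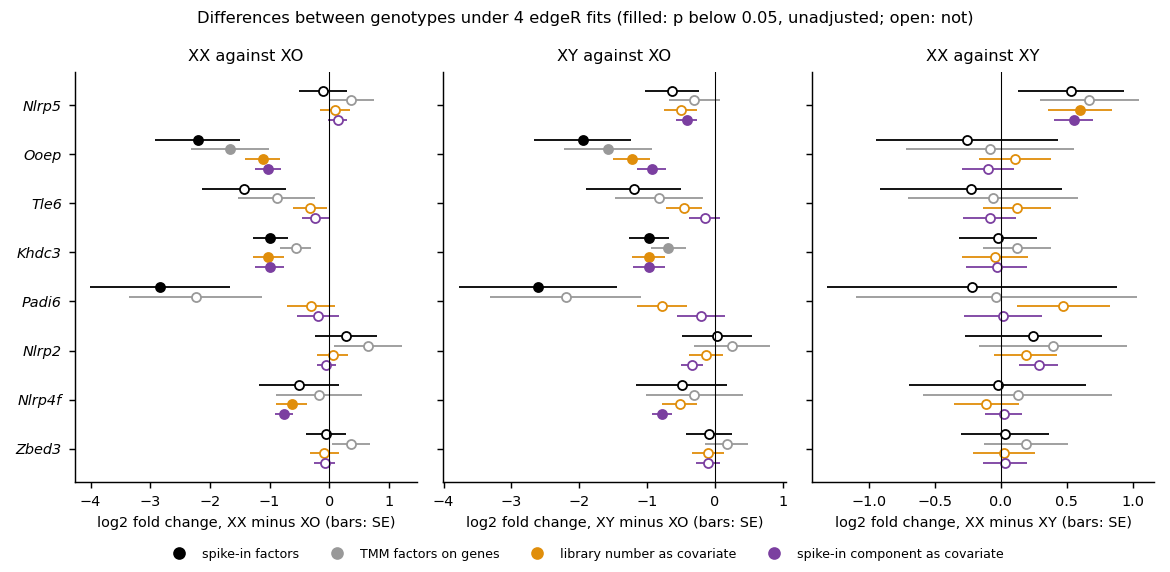
Log2 fold changes of the 8 members (x axes, with SE) in the 3 comparisons under 4 edgeR fits; filled points have an unadjusted p below 0.05. The difference of Padi6 between XX and XO oocytes is -2.83 with the spike-in factors and -0.19 with the spike-in component as a covariate, while that of Khdc3 stays at -0.99 and -0.999.

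The members fell into groups when samples were placed by library number. Padi6 was at 212 normalized CPM in library 1 (XO1), 771 in library 3 (XX1), 535 in library 4 (XY1), 838 in library 6 (XX2), 1081 in library 7 (XY2), 1764 in library 9 (XX3), 2312 in library 10 (XY3), 7273 in library 12 (XO2) and 16520 in library 13 (XO3). Only libraries 3 and 4 were out of order. Against the library number, the log2 level of Padi6 had a Pearson r of 0.96 (rho = 0.98), that of Tle6 0.94 (rho = 0.95) and that of Ooep 0.85 (rho = 0.87), over 9 samples that share their scaling. Nlrp2 and Nlrp4f ran the other way, with r of -0.92 and -0.89 (rho = -0.88 for both). Nlrp5 was at 0.60, and Khdc3 and Zbed3 were at 0.16 and -0.15. The same members followed the share of ERCC-00002 among spike-in UMIs, with r of 0.95 for both Padi6 and Tle6, 0.87 for Ooep, -0.95 for Nlrp2 and -0.89 for Nlrp4f, against 0.24 for Khdc3 and -0.06 for Zbed3.

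**Figure D3:**
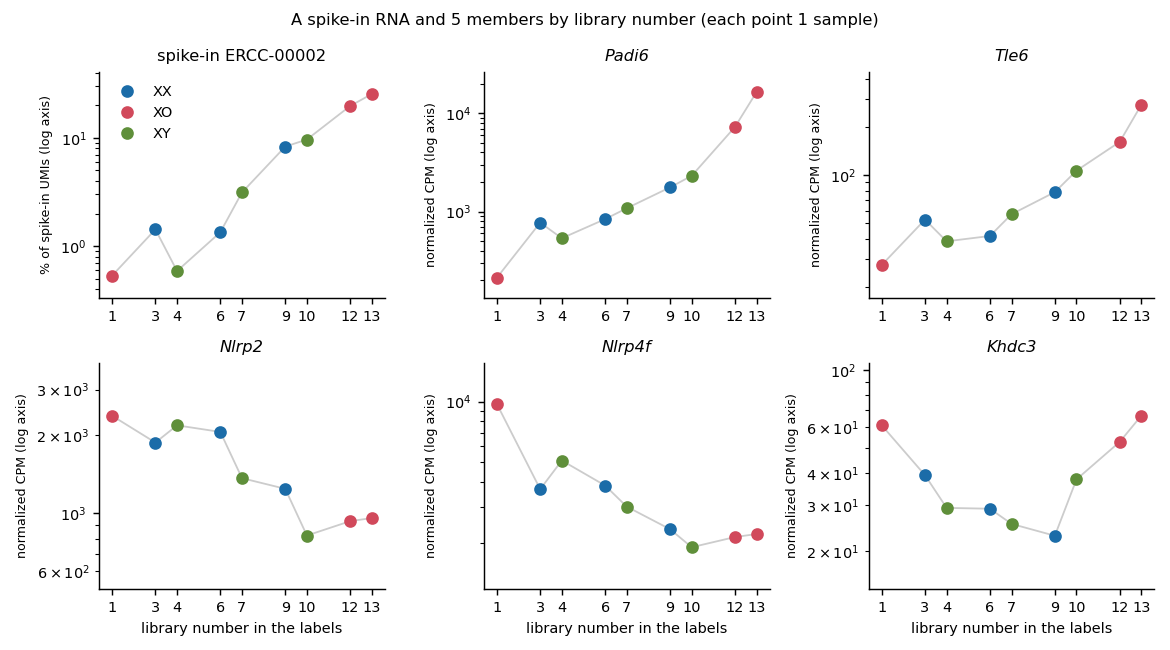
The share of ERCC-00002 among spike-in UMIs and the normalized CPM of 5 members (log axes) by the library number in the labels; each point is 1 sample, coloured by genotype. Padi6 and Tle6 go up with the spike-in from library 1 to library 13, Nlrp2 and Nlrp4f go down, and Khdc3 is highest in the 3 XO libraries at both ends.

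The library number and the first component of the spike-in composition were each added to the edgeR fit, and both fits were chosen after the data were seen. Between XX and XO, 3345 of 10993 tested genes were called with the library number, and 1383 passed the adjustment. With the spike-in component 3876 were called and 2346 passed, beside 1986 and 0 in the fit without a covariate. Small adjusted p in these fits were therefore common among all genes. With the library number as a covariate, the difference of Padi6 between XX and XO oocytes was -0.30 ± 0.40 on the log2 scale (edgeR adjusted p = 0.647), and with the first component of the spike-in composition, which held 96.0% of the variance of 9 spike-ins, it was -0.19 ± 0.35 (adjusted p = 0.743). Tle6 was at -0.33 and -0.24 in these fits and was not called. Ooep kept a smaller difference, -1.12 ± 0.29 with the library number (edgeR adjusted p = 0.0202) and -1.03 ± 0.22 with the spike-in component (adjusted p = 0.00301). Khdc3 was at -1.02 ± 0.25 (adjusted p = 0.0165) and -0.999 ± 0.24 (edgeR adjusted p = 0.00699) beside -0.99 without a covariate. With 2 surrogate variables, however, Khdc3 was at -0.48 ± 0.30 (edgeR adjusted p = 0.451) and was not called, and Padi6 was at -0.10 ± 0.31, while Ooep was called at -0.81 ± 0.20 (edgeR adjusted p = 0.031). That fit called 1825 genes, and 362 passed the adjustment. Nlrp4f, at -0.51 in the fit without a covariate, was called at -0.63 ± 0.26 with the library number (adjusted p = 0.107) and -0.75 ± 0.15 with the spike-in component (adjusted p = 0.00171). Over all alternatives, the edgeR and DESeq2 adjusted p for XX against XO ranged from 0.00079 to 0.919 for Padi6, from 0.00301 to 0.918 for Ooep and from 0.00699 to 0.948 for Khdc3. When Khdc3 and Gm20509 were counted as 1 gene, their difference was -0.66 ± 0.39 (adjusted p = 0.373) and was not called.

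XY and XO oocytes were compared in the same fits. With the library number, 2300 genes were called and 371 passed the adjustment. With the spike-in component there were 2965 and 1033, beside 1092 and 4 without a covariate. Ooep was called at -1.23 ± 0.28 with the library number (edgeR adjusted p = 0.0217) and at -0.93 ± 0.21 with the spike-in component (adjusted p = 0.0119). Khdc3 was called at -0.97 in both (edgeR adjusted p = 0.0339 and 0.0149). Padi6 was at -0.77 ± 0.37 (adjusted p = 0.24) and -0.20 ± 0.36 (adjusted p = 0.758) and was called in neither. With the spike-in component Nlrp4f was also called lower in XY, at -0.78 ± 0.15 (edgeR adjusted p = 0.00394), and so was Nlrp5, at -0.41 ± 0.15 (edgeR adjusted p = 0.0936), which was at 0.14 and not called in XX against XO. Between XX and XY oocytes, Nlrp5 was called higher in XX in both, at 0.60 ± 0.24 (edgeR adjusted p = 0.189) and 0.55 ± 0.15 (edgeR adjusted p = 0.0252). These fits called 1913 and 2227 genes, of which 508 and 797 passed the adjustment, beside 638 and 9 without a covariate. The values of Nlrp5 behind its call lay higher in XX in 3 of 3 samples than in any XY sample. With 2 surrogate variables, 4 members were called lower in XY than in XO oocytes. These were Ooep at -0.93 ± 0.14 (edgeR adjusted p = 0.000552), Khdc3 at -0.72 ± 0.21 (adjusted p = 0.041), Nlrp4f at -0.49 ± 0.14 (adjusted p = 0.0383) and Nlrp5 at -0.42 ± 0.14 (adjusted p = 0.0842). That fit called 2543 of all tested genes between XY and XO, and 757 passed the adjustment.

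XO1 by itself decided several values. Without XO1, the 2 remaining XO samples gave differences from XX oocytes of -3.39 ± 0.65 for Padi6 (edgeR adjusted p = 0.00608), -2.66 ± 0.46 for Ooep (adjusted p = 0.00431) and -1.89 ± 0.45 for Tle6 (adjusted p = 0.0129), and 4 members were called. Nlrp4f turned from -0.51 to 0.65 ± 0.45 (adjusted p = 0.343) and Nlrp2 moved from 0.28 to 0.92 ± 0.44 (adjusted p = 0.158), and neither was called. In the fit without XO1, 4073 of all 11590 tested genes were called, 3703 of them lower in XX, and 2633 passed the adjustment. With all samples, 1986 genes were called and 0 passed. Without XO3, Padi6 was at -1.73 and Ooep at -1.52, neither was called, and Khdc3 was the only member called (-0.91, edgeR adjusted p = 0.532). That fit called 1059 of all 11371 tested genes. The call of Padi6 between XX and XO was also lost without XO2, XX1, XX2, XX3 or XY2, that of Ooep also without XX1, and that of Khdc3 held whichever sample was left out. Between XY and XO, Padi6 was called only when all samples were used or XO1 was left out, Ooep was lost without XO3, XX1, XY1 or XY2, and Khdc3 was lost without XY2.

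Ratios of 2 members within a library do not depend on the scaling. Per 100 Nlrp4f UMIs there were 20.9, 21.8 and 75.4 Padi6 UMIs in XX1, XX2 and XX3, 2.18, 340 and 746 in XO1, XO2 and XO3, and 10.5, 35.8 and 121 in XY1, XY2 and XY3, a 341-fold range. Padi6 made up 1.24% of the UMIs of the 8 members in XO1, 38.5% in XO2 and 52.5% in XO3, as against 6.22 to 15.6% in XX and 4.51 to 21.7% in XY samples. Nlrp4f made up 56.9% in XO1, 11.3% in XO2 and 7.04% in XO3, with 20.6 to 33.1% in XX and 17.9 to 43.1% in XY samples. The 95% Wilson intervals of these shares reached at most 0.609 percentage points to either side. The range within the XO genotype thus exceeded the range over XX and XY samples for both members.

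**Figure D4:**
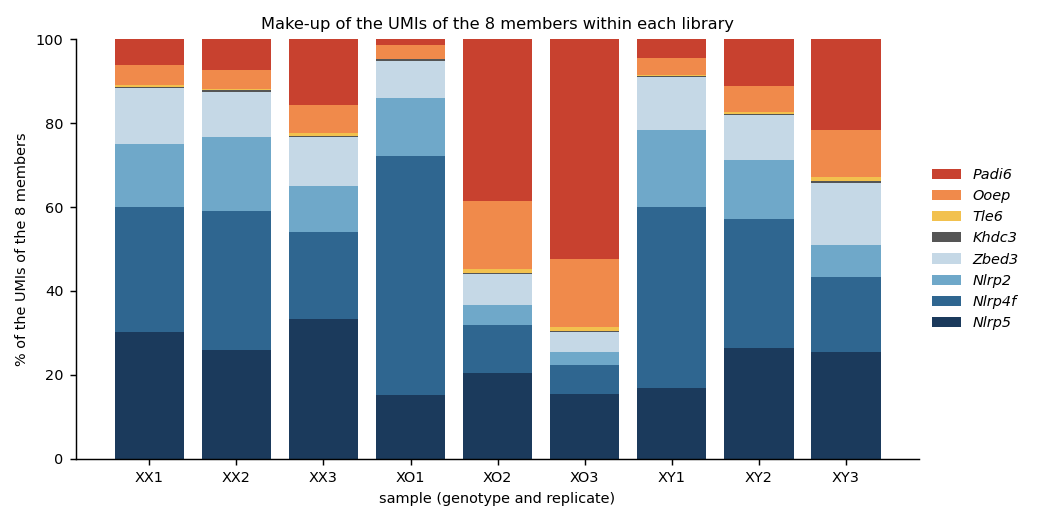
Share of each member in the UMIs of the 8 members (bars add up to 100%) in the 9 samples. Padi6 grows from 1.24% in XO1 to 52.5% in XO3 and Nlrp4f shrinks from 56.9% to 7.04%.

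As a whole, the 8 members held 1.40, 1.36 and 1.41% of gene UMIs in XX1, XX2 and XX3, 1.43, 1.597 and 2.21% in XO1, XO2 and XO3, and 1.20, 1.13 and 1.12% in XY1, XY2 and XY3. The 3 genotypes did not overlap in this share. In normalized CPM, the summed levels were 12399, 11615 and 11335 in XX and 11860, 9804 and 10669 in XY samples, which overlapped. They were 17080, 18868 and 31484 in XO samples. Without Padi6 the share was 1.31, 1.26 and 1.19% in XX, 1.41, 0.981 and 1.05% in XO, and 1.14, 1.01 and 0.877% in XY samples. In this share XX samples still lay above XY samples, while XO samples overlapped with both, so that the higher share in XO2 and XO3 came from Padi6.

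Across the 9 samples, the log2 levels of Tle6 and Padi6 had a Pearson r of 0.99, those of Ooep and Tle6 0.95, those of Ooep and Padi6 0.93 and those of Nlrp2 and Nlrp4f 0.90. Padi6 and Nlrp2 were at -0.86 and Padi6 and Nlrp4f at -0.83. Zbed3 had r of -0.0011 against Padi6 and 0.13 against Nlrp4f with the spike-in factors, but -0.63 and 0.47 with TMM factors on genes, where Tle6 and Padi6 were at 0.99 and Padi6 and Nlrp4f at -0.95. These values share the scaling of each library and describe the same spread as the library number. The genes outside the complex whose log2 levels were most like the mean of the centred log2 levels of the members were Dusp14 (r = 0.99), Igf2bp2, Rpl23a, Ralgps1 and Fkbp6 (r = 0.99 each), the 5 highest of 7262 tested genes that averaged 10 normalized CPM or more.

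Genes related to the complex were taken from lists, with the same test. Of 15 tested partners of the lattices and the cortex, 4 were lower in XX than in XO oocytes, where 16.7% of all tested genes were, and none was higher, where 1.4% were, with a median log2 fold change of -0.74 beside -0.46 over all genes. Nlrp14, the most abundant of them and an NLR protein itself, averaged 20189 normalized CPM in XX (SD 4497, n = 3), 13863 (SD 825) in XO and 16452 (SD 4288) in XY oocytes, and was not called (0.54 ± 0.50 on the log2 scale, XX minus XO, edgeR adjusted p = 0.561). Nlrp9c and Nlrp9b, at means of 2363 and 1989 normalized CPM over all samples, were not called either. Both were highest in XO1 (6214 and 5377 normalized CPM), as were Nlrp2 and Nlrp4f. The 4 that were lower in XX were Tuba1c, a tubulin, Ube2d3, a ubiquitin-conjugating enzyme, Astl, the egg protease ovastacin, and Tubb5, another tubulin. Their log2 differences were -4.04, -0.94, -2.29 and -0.96 (edgeR adjusted p = 0.203, 0.214, 0.233 and 0.243). The paper, by contrast, chose Tubb5 from the genes it found most consistently and highly expressed across the genotypes. Tuba1c was at 20.2 normalized CPM in XO1 and at 468 and 1284 in XO2 and XO3, and Astl at 86.5, 960 and 2031, the same order of XO samples as Padi6. Tuba1c, Ube2d3 and Astl were also lower in XY than in XO oocytes (edgeR adjusted p = 0.485 for each), where 8.24% of all tested genes were. None of the 15 differed between XX and XY at p below 0.05 in edgeR, where 1.41% of all tested genes were higher and 4.39% lower in XX.

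Of 17 tested maternal effect genes outside the complex, 3 were lower in XX than in XO oocytes (Atg5 by -1.16, Pms2 by -2.0 and Tcl1 by -3.54 on the log2 scale), a share close to the 16.7% of all tested genes. Their edgeR adjusted p were 0.203, 0.203 and 0.216. In XY against XO, 3 were lower in XY (Atg5 by -0.85, Tcl1 by -3.42 and Bnc1 by -0.71, edgeR adjusted p = 0.485, 0.485 and 0.489), beside 8.24% of all tested genes. None was called between XX and XY, where 1.41% of all tested genes were higher and 4.39% lower in XX. Dppa3, Spin1 and Npm2, the most abundant of them, were not called. Of the 6 tested transcription factors of the oocyte, Nobox, a homeodomain factor known to regulate oocyte genes, was lower in XX and in XY than in XO oocytes (-2.85 and -2.38, edgeR adjusted p = 0.203 and 0.485). It was the only 1 of the 6 that was called, where 16.7% and 8.24% of all tested genes were called lower. It was at 62.0, 67.2 and 108.8 normalized CPM in XX, at 56.4, 522 and 1138 in XO, and at 51.6, 91.8 and 184.7 in XY samples, so that XO1 again lay with the other genotypes. Tbpl2 and Lhx8 were not called. Among 9 oocyte markers, Gdf9 and Zp1 were lower in XX than in XO oocytes (-2.11 and -3.81, edgeR adjusted p = 0.203 and 0.214), where 16.7% of all tested genes were. XY minus XO differences were -2.10 and -3.70 (edgeR adjusted p = 0.485 for both). The paper, however, reported no difference of Gdf9 between the genotypes at this oocyte size, by RNA sequencing and by qRT-PCR. XO1 stood apart from XO2 and XO3 here too, and was at 339 normalized CPM for Gdf9, 13.98 for Zp1 and 19.2 for Tcl1, beside XX means of 281, 69.8 and 81.7. Bmp15, which is X-linked, was called with XX above XY (1.32, edgeR adjusted p = 0.408) and XY below XO (-1.26, edgeR adjusted p = 0.485).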

How the data were processed

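Pools of oocytes were profiled by Smart-seq3. Per the submitters' processing notes and the study's methods, reads were aligned with HISAT2 to GRCm38 with Gencode genes. The authors deposited UMI counts of 5′ exons per gene and spike-in, a normalized CPM table (called signal here, since the count is multiplied by 1 constant per sample from the gene total and the ERCC TMM factor) and a log2 table from which batch effects had been regressed. The aligner version and Gencode release are not given in the sources used here. No column was left unmapped (0 unmapped columns).

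The members and gene lists were chosen with earlier results of these data known. Counts were fitted in edgeR 4.0.16 (R 4.3.3; limma 3.58.1) with the quasi-likelihood F test on all 9 samples, after filterByExpr by genotype (10993 genes) and with the spike-in TMM factors (residual degrees of freedom 6), at an unadjusted p below 0.05 with Benjamini-Hochberg values beside it. The samples are labelled biological replicates, and p-values measure the spread between pools. On simulated counts for XX against XO (10993 genes, 10696 of which passed the filter), 93.7% of the 191 tested genes changed 4-fold and 4.65% of unchanged genes were called. The counts of each gene were drawn independently, without the differences that genes of a library share, so these rates do not cover such differences. Alternatives used DESeq2 1.42.0, sva 3.50.0 (2 surrogate variables), other scalings, no filter, the replicate block, the spike-in composition, the library number, GC content, Khdc3 summed with Gm20509, and each sample left out. Tables and figures were made in Python 3.11.15 with numpy 2.4.6, pandas 2.3.3, scipy 1.17.1 and matplotlib 3.10.9. Correlations used log2(normalized CPM + 0.5).

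All 8 members are named. From each other list, the 3 genes of highest mean level and up to 4 called genes of smallest p are named. So are the 5 genes most like the mean of the members' centred log2 levels. That mean averages members that ran in opposite directions, such as Padi6 and Nlrp2, and does not describe each of them. Deviations of same-numbered samples from the genotype means correlated at 0.82, 0.27 and 0.77 between XO and XY, so that the block is given beside that comparison. Between XX and XO the values were 0.45, -0.43 and 0.66, and between XX and XY 0.42, -0.06 and 0.71. The labels do not say what the replicate number or the library number stands for. Promoters came from RefSeq (GRCm38.p6) by gene symbol, and all 8 members matched.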

Additional observations from a re-analysis of the deposited data

How the results depend on the processing

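Of the 8 members, 3 were called in XX against XO, none in XX against XY, 3 in XY against XO and 3 over all genotypes. Of all 10993 tested genes, 1986, 638, 1092 and 1491 were called in the same order. TMM factors on genes gave 1 between XX and XO and 1 over all genotypes, beside 1311 and 1142 of all genes. Spike-in totals as library sizes gave 0 in each of these and 0 between XY and XO, beside 343, 276 and 136 of all genes. With 2 surrogate variables there was 1 for XX against XO and 2 for XX against XY (Nlrp5 and Nlrp2), where DESeq2, the spike-in component and the library number gave 1 each. Of all genes, the fit with surrogate variables called 1825 and 2193 in these comparisons. DESeq2, the spike-in component and the library number called 576, 2227 and 1913 genes between XX and XY. Without the filter on low counts, 4 members were called in XX against XO, 4 in XY against XO and 4 over all genotypes, Tle6 in addition. Of the 28051 genes then tested, 3953, 2735 and 3557 were called. Leaving out 1 sample gave 1 to 4 members for XX against XO, 0 to 0 for XX against XY, 0 to 4 for XY against XO (0 without XY2) and 1 to 4 over all genotypes. Of 11371 to 11623 tested genes, these fits called 828 to 4073, 384 to 1280, 373 to 3470 and 702 to 3954. The fit with the replicate block gave 2, 0, 2 and 2 members and so ended the calls of Padi6. It called 2527, 1007, 1827 and 2254 of all genes. XO2 correlated better with XY3 (0.71) than with XY2 (0.27), so that not every sample was closest to its own number. The cause of these changes was not tested.

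Several log2 differences changed sign, none of which was called with the spike-in factors except that of Padi6, which was 0.74 (XX against XO) and 0.71 (XY against XO) in the batch-regressed values. With TMM on genes, Nlrp5 and Zbed3 were at 0.37 and 0.37 (XX against XO), Khdc3 and Nlrp4f at 0.13 and 0.13 (XX against XY) and Zbed3 at 0.18 (XY against XO). With spike-in totals, Nlrp5, Nlrp4f and Zbed3 were at 0.79, 0.48 and 0.83 (XX against XO), Ooep, Tle6, Khdc3, Padi6 and Nlrp4f at 0.35, 0.44, 0.49, 0.47 and 0.79 (XX against XY) and Zbed3 at 0.13 (XY against XO). In DESeq2, Nlrp5 and Zbed3 were at 0.25 and 0.25 (XX against XO), Khdc3, Padi6 and Nlrp4f at 0.14, 0.00057 and 0.12 (XX against XY) and Zbed3 at 0.047 (XY against XO). With surrogate variables, Nlrp5 and Zbed3 were at 0.18 and 0.36 (XX against XO), Ooep, Tle6, Khdc3, Padi6 and Nlrp4f at 0.12, 0.11, 0.24, 0.23 and 0.16 (XX against XY), and Nlrp2 and Zbed3 at -0.087 and 0.077 (XY against XO). With the replicate block, Padi6 and Nlrp4f were at 0.057 and 0.12 (XX against XY). With the spike-in component, Nlrp5 and Nlrp2 were at 0.14 and -0.049 (XX against XO), Padi6 and Nlrp4f at 0.013 and 0.022 (XX against XY) and Nlrp2 at -0.33 (XY against XO). With the library number, Nlrp5 was at 0.10 (XX against XO), Ooep, Tle6 and Padi6 at 0.11, 0.12 and 0.47 (XX against XY) and Nlrp2 at -0.13 (XY against XO). With the GC offset, Zbed3 was at 0.025 (XX against XO) and Khdc3 and Nlrp4f at 0.0033 and 0.0025 (XX against XY). With the GC offset and the replicate block, Zbed3 was at 0.081 (XX against XO), Padi6 and Nlrp4f at 0.0059 and 0.061 (XX against XY), and Nlrp2 and Zbed3 at -0.013 and 0.025 (XY against XO).

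With 1 sample left out, log2 differences between XX and XO ranged from -0.27 to 0.12 for Nlrp5, from -0.86 to 0.65 for Nlrp4f and from -0.096 to 0.073 for Zbed3. Between XX and XY they ranged from -0.51 to 0.25 for Ooep, from -0.56 to 0.28 for Tle6, from -0.19 to 0.16 for Khdc3, from -0.75 to 0.49 for Padi6, from -0.032 to 0.66 for Nlrp2, from -0.30 to 0.42 for Nlrp4f and from -0.14 to 0.15 for Zbed3. Between XY and XO they ranged from -0.38 to 0.68 for Nlrp2, from -0.93 to 0.68 for Nlrp4f and from -0.15 to 0.16 for Zbed3. Ooep, Khdc3 and Padi6 stayed below XO in both XX and XY oocytes whichever sample was left out. In all, 359 of 504 values kept their direction and their side of the threshold or stayed within the replicate spread. Khdc3 and Tle6 had the fewest UMIs, down to 63 and 53 in a sample.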
